A study of Macaca mulatta with 304 samples.

Results

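Whole blood RNA from 6 rhesus macaques (Macaca mulatta) was compared between Day 180 after irradiation of the thorax and the draw taken from the same animal 2 days before irradiation. The members are every animal of the series with a sample at both draws, paired by the animal number in the sample name, which gave 12 samples of 6 animals out of the 24 control and 280 later samples of 28 animals. In the whole study, 28 male and female animals were assigned to 9.8 Gy or 10.7 Gy and bled repeatedly to Day 270 to look for RNA markers of dose, survival and lung injury. The 6 animals here were 2 males (B1003 and B1004) and 3 females (B1502, B1503 and B1505) at 9.8 Gy and 1 female (B2502) at 10.7 Gy, so the doses were not compared. Each of these 6 was also bled on Day 270, and animals that died before Day 180 could not enter. All were healthy adults of a Chinese sub-strain, given a single exposure of the thorax from front and back with a linear accelerator under ketamine and xylazine after ondansetron, so the control draw is the untreated state of the same animal. All irradiated animals received tramadol or buprenorphine from Day 4 to Day 25, and dexamethasone, a glucocorticoid, was given only to animals with rapid breathing. Which of these 6 animals received dexamethasone was not used here. The study took the blood from a peripheral vein into tubes that lyse all blood cells. It removed ribosomal RNA with the Ribo-Zero Plus kit and made stranded total RNA libraries for paired-end NovaSeq sequencing.

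Whole blood RNA is a mixture from neutrophils, lymphocytes, monocytes, eosinophils, platelets and young red cells, so the level of a gene used by 1 cell type reflects both the number of those cells and the RNA each of them holds. B cells are among the most radiation-sensitive cells of the blood and are rebuilt from bone marrow, while myeloid cells renew within days and respond to injury of distant tissue. Thoracic irradiation exposes the lung, the heart, the blood passing through them and the marrow of the ribs, sternum and spine, and lung injury may appear weeks to months later as pneumonitis and then fibrosis.

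On Day 180, 20 of 22 B cell genes were lower than in the animals' own control samples, with a median log2 change of -2.08, and none was higher. Of monocyte genes 10 of 16 were higher and of neutrophil granule genes 8 of 14. Among single genes, S100A6, a calcium-binding protein, was 4.43-fold higher, CCR1, a receptor for inflammatory chemokines, 4.38-fold, and CLEC7A, the receptor for fungal beta-glucan, 3.57-fold. CD79B, the signalling chain of the B cell receptor, was 8.13-fold lower. The lower B cell genes were present against Day 30 as well, when 21 of 22 were lower, and none of the 22 passed the test against Day 210, where 8.00% of all genes did. Against Day 150 no gene of any kind was called.

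Counted reads per sample were 10851683 to 13575225 in the control group and 6303641 to 10371810 on Day 180, and no pair of samples was close enough to be a duplicate (highest correlation 0.972). The summed level of Y chromosome genes separated the males from the females as labelled. Sample descriptions carry a library label that is S0 for every Day 180, Day 30, Day 150 and Day 210 sample and one of S21 to S97 for the 6 control samples. What the label stands for is not given in the sources used here, so label and day cannot be told apart in the comparison with control. For this reason each count against control was also computed in a fit of all samples of the series with the label as a term. That term held the sets S0, S19 to S138 and S193 to S239, which were grouped here by label number. The fit takes a set to have the same effect at every draw. Each count was also computed against the 4 control samples of other animals that carry S0. Those 4 animals were all assigned to 10.7 Gy. The comparison with them is unpaired, so differences between animals enter it along with the label. The comparisons with Day 30, Day 150 and Day 210 lie within the S0 label. Nothing says that an animal was bled more than once per draw, so n is 6 animals at each draw.

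Of 13751 genes tested against control by the quasi-likelihood test of edgeR with each animal as its own block, 2567 (18.7%) were called. A call required an adjusted p (Benjamini-Hochberg) no higher than 0.05 together with a change of 1.5-fold or more. Of the calls, 1211 (8.81% of genes tested) were higher and 1356 (9.86%) were lower on Day 180, and 5323 genes had an unadjusted p under 0.05. Among the called genes 2098 moved the same way in 6 of 6 animals. The 6 control and 6 Day 180 values did not overlap for 1093 genes (7.95% of those tested), 796 of them called. At a fold of 2 or more, 444 genes were higher and 459 lower. The share of calls that were higher depended on the scaling, at 47.2% with upper quartile scaling, 55.8% with TMM scaling (1408 higher and 1116 lower) and 58.5% with DESeq2 (1548 and 1099). The median log2 change of all tested genes was -0.06, and list medians below are read against it. List counts against control are read against the 8.81% higher and 9.86% lower. With the library label as a term 2257 genes were called and against the S0 control samples 2734. Without the block for animal 1980 genes were called, and among the lists described below the higher calls went from 10 to 6 for monocytes, from 8 to 5 for mature neutrophils, from 5 to 3 for eosinophils, from 13 to 7 for erythroid genes and from 8 to 4 for the interleukin-1 and interleukin-18 family. They went from 4 to 2 for the glucocorticoid response and for chemokine receptors and from 3 to 1 for the TGF-beta pathway, and the lower calls went from 5 to 3 for chemokine receptors and from 5 to 1 for the interferon response.

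**Figure D1:**
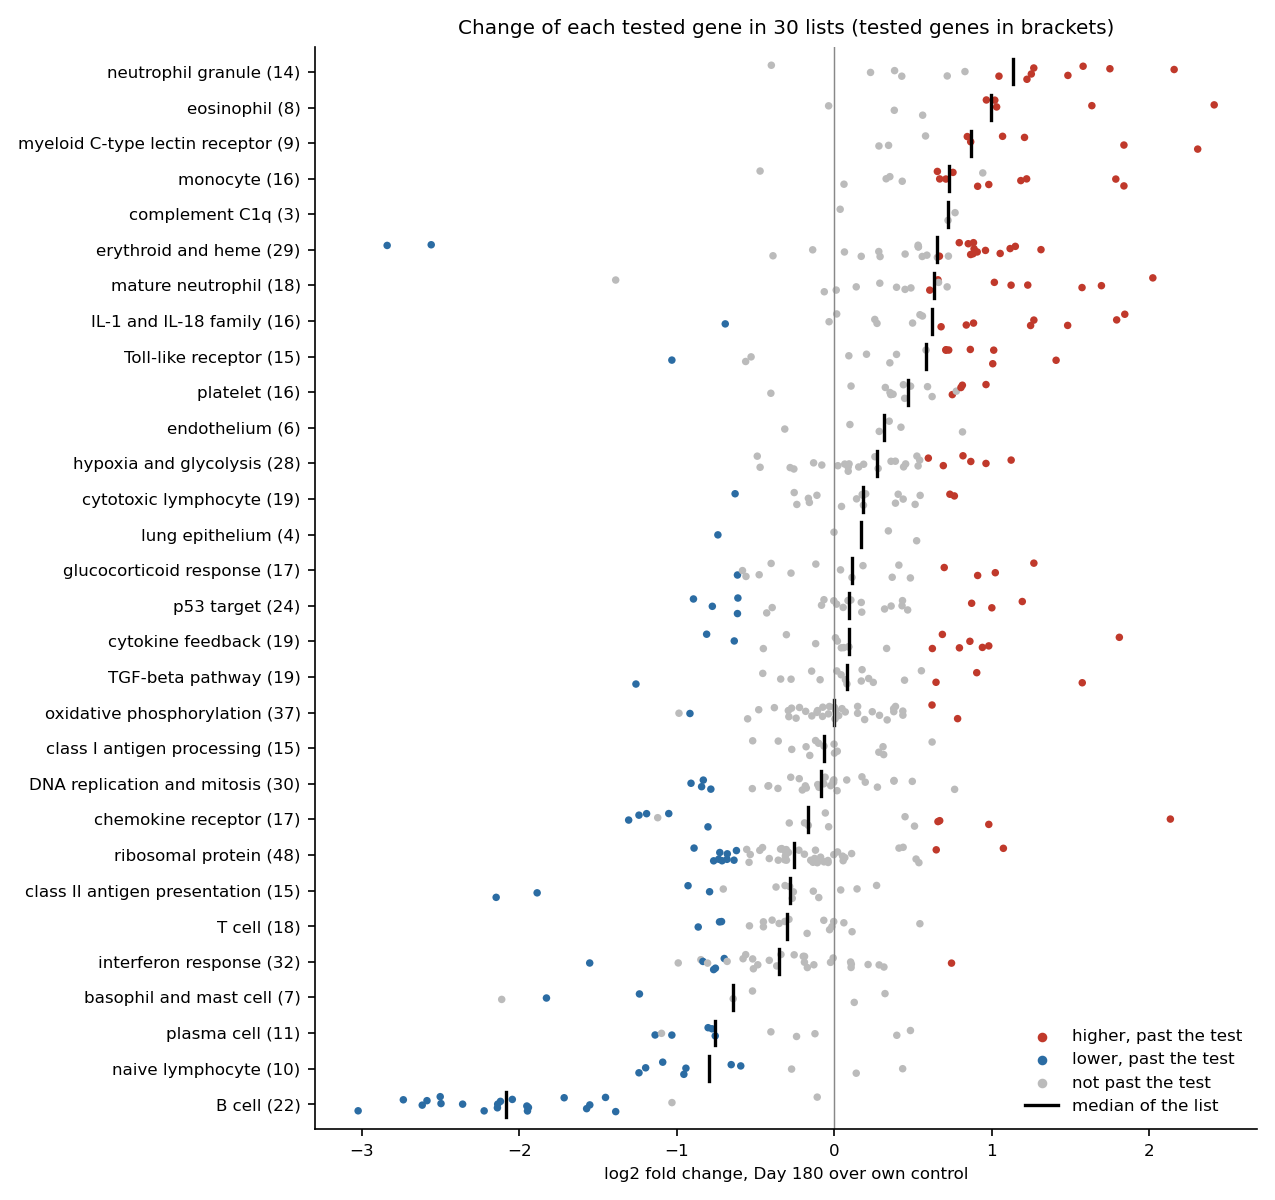
Log2 fold changes on Day 180 versus own control (x axis) for the tested genes of 30 lists (y axis), 1 dot per gene, red for called higher, blue for called lower, grey for neither, with a bar at the list median. The B cell row lies furthest left, with 20 blue dots of 22 and a median of -2.08, and the granule, eosinophil, lectin and monocyte rows lie to the right of 0.

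B cell genes fell together. CD79B (chr16:60488425-60492051 in Mmul_10, minus strand) had a lowest, median and highest level of 152, 185 and 365 CPM (counts scaled to a common library size) in the 6 control samples and 7.45, 26.1 and 59.9 CPM on Day 180. Every Day 180 value lay below every control value, and the log2 fold change was -3.02 ± 0.33, adjusted p = 0.000112, where ± is the standard error. CD22, an inhibitory lectin of the B cell surface, had levels of 44.8, 74.2 and 177 CPM in control samples and 8.23, 12.2 and 39.9 CPM on Day 180. Its groups did not overlap either (log2 fold change -2.59 ± 0.27, adjusted p = 9.87e-05). CD72, another inhibitory receptor of B cells, went from 19.6, 35.2 and 98.6 CPM to 4.10, 5.65 and 10.3 CPM without overlap (-2.74 ± 0.30, adjusted p = 0.00011). TCL1A, a co-activator of AKT found in naive B cells, had control levels of 7.14, 13.2 and 26.8 CPM against 0.912, 2.42 and 3.61 CPM on Day 180. The highest Day 180 value of TCL1A was again below the lowest control value (-2.62 ± 0.32, adjusted p = 0.00022).

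The other B cell genes covered surface proteins, transcription factors and adaptors. Among surface proteins, the pan-B cell protein MS4A1 (CD20) had a log2 fold change of -1.95 ± 0.20, the receptor chain CD79A -2.12 ± 0.24 and the complement receptor CR2 -1.95 ± 0.19. Of the transcription factors that set B cell identity, PAX5 had -2.36 ± 0.26, EBF1 -2.04 ± 0.18 and the octamer co-activator POU2AF1 -1.45 ± 0.21. The adaptor BLNK had -1.94 ± 0.20, the kinase BLK -2.14 ± 0.26 and the receptors for the survival factors BAFF and APRIL -1.55 ± 0.28 (TNFRSF13C) and -1.71 ± 0.23 (TNFRSF13B). VPREB3 (-1.03) and BTK (-0.11), a kinase that myeloid cells and platelets also express, did not pass. The summed level of the 22 genes was 1289 to 3280 CPM in control samples and 285 to 890.3 CPM on Day 180, so no animal's Day 180 sum reached the lowest control sum. The median change per animal lay between -1.51 in B1505 and -3.33 in B1004. Under each alternative tried 20 or 21 of the 22 were lower, including the fit with the library label as a term (20) and the S0 control samples (21). In these bulk samples fewer cells of a type and less RNA per cell cannot be told apart.

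The octamer, a sequence bound by the factors with which POU2AF1 works, was searched as ATGCAAAT and its reverse complement ATTTGCAT in the bases from 250 before to 50 after the gene starts of RefSeq (Mmul_10). It was present in 3 of 22 B cell windows (13.6%) and in 1.68% of the 13655 windows of tested genes. The matches of BLNK and EBF1, each a gene that was lower on Day 180, are printed with the octamer in capitals and up to 50 bases of flank on either side, as examples of the matches in the list. Both genes are on the minus strand, and the letters are read in the direction of the gene. The BLNK stretch lies at chr9:96689459-96689566 and the EBF1 stretch at chr6:156519732-156519839, both upstream of the annotated start.
BLNK: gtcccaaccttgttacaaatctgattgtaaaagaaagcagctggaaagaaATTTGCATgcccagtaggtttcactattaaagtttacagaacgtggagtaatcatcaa
EBF1: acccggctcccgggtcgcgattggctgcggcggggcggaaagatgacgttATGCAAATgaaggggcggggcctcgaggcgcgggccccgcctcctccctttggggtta
These are matches of letters, and binding was not measured. The octamer was chosen with the B cell result known.

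**Figure D2:**
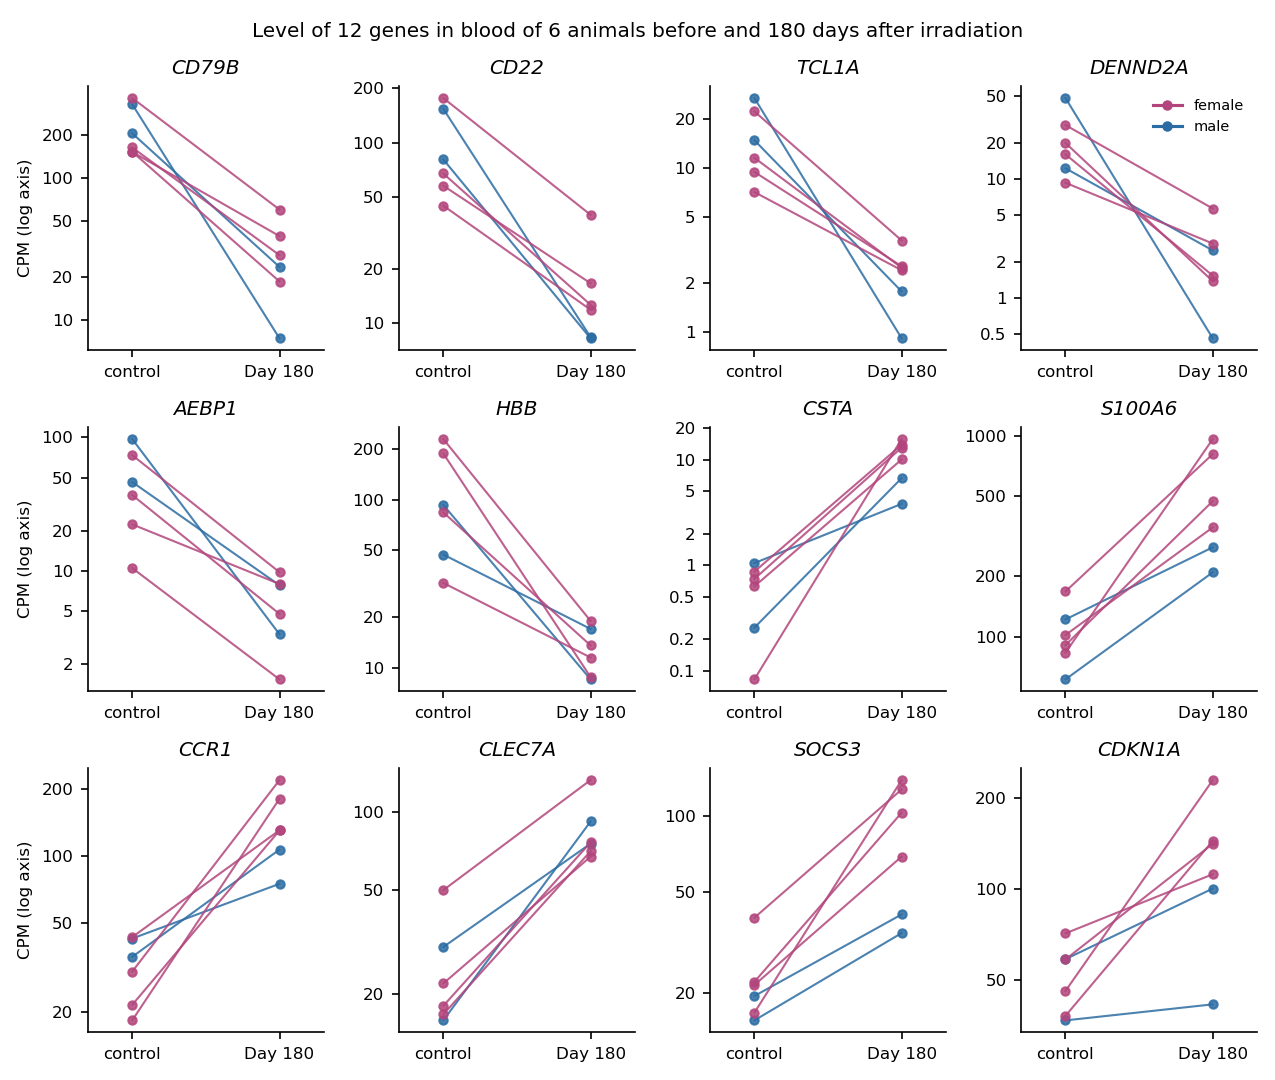
Level in CPM (y axis, log scale) of 12 genes in the control and the Day 180 sample of each animal (x axis), with a line joining the samples of 1 animal, coloured by sex. The lines of CD79B, CD22, TCL1A, DENND2A, AEBP1 and HBB run down in each animal and those of CSTA, S100A6, CCR1, CLEC7A, SOCS3 and CDKN1A run up.

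Antibody-secreting cell genes were lower in part, with 5 of 11 called lower and none higher. CD38, an ectoenzyme of plasma cells and of other activated leukocytes, was at 199.9, 262 and 375 CPM in control samples and 78.4, 122.9 and 178 CPM on Day 180, without overlap (-1.14 ± 0.14, adjusted p = 0.000214). The secretory chaperone MZB1 had -1.03 ± 0.21, adjusted p = 0.00382, with overlapping groups, and the factor IRF4 -0.80 ± 0.18, adjusted p = 0.00632. The joining chain of IgM and IgA, JCHAIN, had a log2 fold change of -0.40 and did not pass, and the receptor TNFRSF17 had -0.24.

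Genes of naive lymphocytes followed, with 7 of 10 lower, none higher and a median of -0.80. CCR7, the receptor that leads naive cells into lymph nodes, had 67.8, 145 and 211 CPM in control samples and 30.3, 59.4 and 96.9 CPM on Day 180 (-1.24 ± 0.15, adjusted p = 0.000228). The transcription factor LEF1 went from 133.6, 220.8 and 297 CPM to 57.5, 101.9 and 141 CPM (-1.20 ± 0.13, adjusted p = 0.00011). BACH2, a repressor that holds B and T cells in the resting state, had 197.8, 264 and 332 CPM against 99.1, 128.8 and 136.5 CPM. Its groups did not overlap (-1.09 ± 0.14, adjusted p = 0.000252), while those of CCR7 and LEF1 overlapped although both genes were lower in 6 of 6 animals. The interleukin-7 receptor IL7R had -0.96 ± 0.14, adjusted p = 0.000645, and TCF7 -0.94 ± 0.14.

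Genes of the T cell receptor complex had small log2 fold changes. CD3D had -0.03 ± 0.14, CD3E -0.07 ± 0.13, CD3G 0.06 ± 0.19 and CD8A 0.54 ± 0.15, and none of the 4 passed. Of 18 T cell genes 3 were lower, among them the co-stimulator CD28 (-0.86 ± 0.15, adjusted p = 0.00147) and CD5 (-0.72 ± 0.14, adjusted p = 0.00327), with 6 lower under the library label term and 10 against the S0 control samples. Of 19 genes of cytotoxic cells, NKG7, a granule membrane protein (0.76 ± 0.13, adjusted p = 0.00162), and FGFBP2 (0.73 ± 0.22, adjusted p = 0.0264) were higher and the protease GZMB (-0.63 ± 0.16, adjusted p = 0.0121) was lower. These cytotoxic counts lie near the shares over all tested genes, 8.81% higher and 9.86% lower. No cytotoxic gene was called higher with the library label as a term or against the S0 control samples. FGFBP2 was at 0.52 (adjusted p = 0.159) and 0.18 (adjusted p = 0.701) and was lost also without B1003, B1502 or B1503, and GZMB was lost with the label (-0.41, adjusted p = 0.199), with TMM scaling or DESeq2 and without B1502. The call of NKG7 was lost with the library label as a term (0.37, adjusted p = 0.299) and its value against the S0 control samples was -0.30.

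Chemokine receptors moved in both directions. CCR1 rose from 18.2, 32.7 and 43.2 CPM in control samples to 75.1, 130.6 and 220 CPM on Day 180, without overlap (2.13 ± 0.27, adjusted p = 0.000284). CCR2, which brings monocytes to inflamed tissue, had 0.98 ± 0.19, the fractalkine receptor CX3CR1 0.67 ± 0.14 and the neutrophil receptor CXCR2 0.66 ± 0.19, and the 3 were called higher. The receptors lower on Day 180 were CXCR5, which guides B cells to follicles (-1.31 ± 0.22, adjusted p = 0.00138), CCR7, CCR6 (-1.05 ± 0.20), CCR4 (-0.80 ± 0.24) and ACKR3 (-1.19 ± 0.35). That gave 4 of 17 higher and 5 lower, with 2 higher under the library label term and 3 lower without B1503. ACKR3 was lost without B1003, B1503 or B2502.

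Class II antigen presentation was lower in 4 of 15 genes, and the size differed by gene. MAMU-DOB and MAMU-DOA, the chains of a modulator of peptide loading that in blood is mostly a B cell product, had levels of 57.9, 75.7 and 131.6 and 41.3, 65.97 and 118.2 CPM in control samples. On Day 180 they stood at 8.20, 17.9 and 39.5 and 6.99, 19.5 and 31.2 CPM, without overlap in either (-2.15 ± 0.24, adjusted p = 0.000124 and -1.89 ± 0.25, adjusted p = 0.000361). MAMU-DQA1 (-0.93) and MAMU-DQB1 (-0.79) were also called. MAMU-DRA had 0.14 ± 0.19, the invariant chain CD74 -0.26 ± 0.22 and CIITA, the switch factor of the pathway, -0.70 ± 0.26, and these did not pass. MAMU-DQB1 was not called with the library label as a term (adjusted p = 0.101), against the S0 control samples (adjusted p = 0.0874) or without B1003, B1004, B1502 or B2502, and MAMU-DQA1 not against the S0 control samples (adjusted p = 0.344). Reads of the DQ and DRB copies may have been split between near-identical genes, so their values are uncertain. None of the 15 class I processing genes was called, with B2M at 0.62 and NLRC5 at -0.52. B2M was called with DESeq2 (0.69, adjusted p = 0.0122) and against the S0 control samples (1.64, adjusted p = 0.0034).

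Monocyte genes rose, with 10 of 16 higher and none lower. CLEC7A went from 15.8, 19.9 and 49.99 CPM in control samples to 67.3, 75.9 and 132.7 CPM on Day 180, without overlap (1.84 ± 0.17, adjusted p = 4.97e-05). LYZ, the gene of lysozyme, went from 57.2, 253 and 400.5 CPM to 195.4, 911 and 1185 CPM, with overlap but higher in 6 of 6 animals (1.79 ± 0.22, adjusted p = 0.000228). VCAN (0.65), CD68 (0.75), the haemoglobin scavenger CD163 (0.91) and the scavenger receptor CD36 (1.18) were among the others called, while CD14 (0.35 ± 0.25) and CSF1R (0.43 ± 0.19) did not pass. The summed level of the 16 genes was 1484 to 2632 CPM in control samples and 2813 to 4809 CPM on Day 180. The count was 10 with the library label as a term, 8 against the S0 control samples and 6 without B2502. CD36 (adjusted p = 0.0493) was lost without any 1 animal but B1003 and without the block, and CD163 without B1004, B1505 or B2502.

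Neutrophil genes were called higher in both lists, though not in each animal alike. Of 14 genes of the granules, which are made in marrow precursors, 8 were higher and none lower. LCN2 (lipocalin 2, a protein that binds bacterial iron carriers) had 0.802, 2.16 and 4.79 CPM in control samples and 1.32, 9.34 and 31.8 CPM on Day 180 (2.16 ± 0.40, adjusted p = 0.00217). CD177, a surface protein of a subset of neutrophils, had 20.6, 65.2 and 139.6 against 37.9, 229.8 and 436 CPM (1.58 ± 0.35, adjusted p = 0.00589). Both overlapped and were higher in 5 of 6 animals, while BPI, a granule protein that kills bacteria, was higher in 6 of 6 (1.51, 4.94 and 8.01 against 6.56, 12.3 and 23.8 CPM, 1.48 ± 0.26, adjusted p = 0.00164). The granule genes MPO (0.72) and LTF (0.23) did not pass. Of 18 genes of mature neutrophils 8 were higher, led by the high-affinity Fc receptor FCGR1A (0.861, 1.07 and 3.06 CPM in control samples, 3.88, 4.73 and 9.72 on Day 180, without overlap, 2.02 ± 0.34, adjusted p = 0.00135), S100A12 (1.70 ± 0.35, adjusted p = 0.00434) and CXCL8 (1.57 ± 0.40, adjusted p = 0.0123). S100A8 was called (1.23 ± 0.39, adjusted p = 0.0351) and its partner S100A9 was not (0.72 ± 0.39). CSF3R, the receptor of granulocyte colony-stimulating factor, had 0.39 ± 0.19. The mature list held 9 higher genes with the library label as a term and 13 against the S0 control samples, 4 without B1503 and 5 without B2502. Its lowest member had -1.39 and was not called, and 1 gene was called lower with DESeq2 and without B1505. The median change of the mature list was 0.08 in B1003, -0.09 in B1502 and 0.475 to 1.245 in the others. That of the granule list was -0.13 in B1003 and 0.37 to 2.39 in the others. S100A8 was lost with DESeq2 and without B1004, B1503 or B2502, CXCL8 without B1503 (adjusted p = 0.0501) and LCN2 against the S0 control samples (adjusted p = 0.064).

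Innate receptors followed. Of 9 myeloid C-type lectin receptors 6 rose, from CLEC10A (0.84) to CLEC4D (2.31), a partner of the receptor for mycobacterial cord factor. CLEC4D had 0.258, 0.545 and 1.17 CPM in control samples and 1.32, 3.02 and 3.88 CPM on Day 180. Its groups did not overlap (2.31 ± 0.36, adjusted p = 0.000914), but the adjusted p was 0.0503 with the library label as a term and 0.303 against the S0 control samples, and 2 lectins in all were called in the latter. Of 15 Toll-like receptor genes 7 were higher, with TLR5, the flagellin receptor, at 7.06, 12.4 and 34.2 CPM in control samples and 19.98, 33.1 and 84.2 CPM on Day 180 (1.41 ± 0.19, adjusted p = 0.00036), TLR4, the receptor of bacterial lipopolysaccharide, at 0.86 ± 0.20 and its co-receptor LY96 at 1.01 ± 0.23. TLR7, a receptor of single-stranded RNA used by B cells and plasmacytoid dendritic cells, was lower (3.95, 4.87 and 5.87 against 1.40, 2.25 and 3.94 CPM, without overlap, -1.03 ± 0.26, adjusted p = 0.0112). It was not called against the S0 control samples (-0.95, adjusted p = 0.0571).

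In the interleukin-1 and interleukin-18 family 8 of 16 genes were higher and 1 lower. The members that rose include the ligands IL1B (0.68 ± 0.21) and IL18 (1.48 ± 0.18, adjusted p = 0.000216) and the signalling receptors IL1R1 (0.84 ± 0.17), IL18R1 (0.88 ± 0.21) and IL18RAP (1.79 ± 0.32, adjusted p = 0.00178). They also include the brakes of the pathway, namely the receptor antagonist IL1RN (7.14, 9.32 and 17.2 CPM in control samples, 16.2, 35.1 and 59.6 on Day 180, 1.84 ± 0.23, adjusted p = 0.000228), the decoy receptor IL1R2 (1.27 ± 0.23, adjusted p = 0.00205) and the inhibitory kinase homologue IRAK3 (1.25 ± 0.16). IRAK2 was lower (-0.69 ± 0.13). IL18 was not called against the S0 control samples (1.06, adjusted p = 0.0544) and IL1R2 not without the block for animal (1.24, adjusted p = 0.0821). IL1RL1, the receptor of interleukin-33, had 2.52, 5.65 and 18.1 against 2.73, 9.47 and 21.4 CPM and did not pass (0.54 ± 0.29, adjusted p = 0.186).

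Eosinophil genes were higher in 5 of 8, with RNASE3, the eosinophil cationic protein, at 0.252, 0.538 and 1.31 CPM in control samples and 1.18, 3.75 and 8.17 CPM on Day 180 (2.41 ± 0.35, adjusted p = 0.000612) and CEBPE, a factor of granulocyte maturation, at 1.63 ± 0.40, adjusted p = 0.0104. The defining markers EPX (0.38 ± 0.22) and CCR3 (-0.04 ± 0.30) did not pass. Of 7 basophil and mast cell genes the protease CPA3 (-1.83 ± 0.58, adjusted p = 0.0326) and IL3RA (-1.24 ± 0.36, adjusted p = 0.022) were lower. Without B1503 the count of higher eosinophil genes was 3. The count of lower basophil and mast cell genes was 0 without any 1 of B1502, B1503, B1505 or B2502, 4 without B1003 or B1004 and 4 with the library label as a term, and neither CPA3 nor IL3RA passed against the S0 control samples (adjusted p = 0.244 and 0.118).

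Among the 10 genes with the highest fold change of those called, higher in 6 of 6 animals and at a mean of at least 1 CPM, 8 belonged to none of the lists. CSTA, a cysteine protease inhibitor of epithelia and myeloid cells, was at 0.0840, 0.690 and 1.05 CPM in control samples and reached 3.82, 11.5 and 15.6 CPM on Day 180 (4.01 ± 0.43, adjusted p = 0.00011). S100A6 had 61.3, 96.4 and 168 CPM against 209, 412 and 963 CPM (2.15 ± 0.24, adjusted p = 0.000124), and SGMS2, a sphingomyelin synthase, 8.01, 11.2 and 16.7 against 30.99, 50.4 and 83.4 CPM (2.18 ± 0.19, adjusted p = 3.73e-05). None of these 3 genes overlapped between groups. EREG, a ligand of the EGF receptor, had 2.26 ± 0.31 and the glutathione transferase MGST1 2.43 ± 0.30, with CAVIN3, a coat protein of caveolae, at 2.23 ± 0.36 and LGR4, a receptor for R-spondins, at 2.14 ± 0.50. CAVIN3 was not called against the S0 control samples (adjusted p = 0.0706) and LGR4 not without the block for animal (adjusted p = 0.0714). LGR4 had 0 to 26 reads in control samples and 6 to 21 on Day 180, and its levels overlapped. SUCNR1, the succinate receptor, rose from 1.68, 3.80 and 17.9 CPM to 3.62, 13.5 and 102.3 CPM (2.02 ± 0.24, adjusted p = 0.000194), with overlap and an increase in 6 of 6 animals, and HDAC11, a deacetylase with no call under the library label term (adjusted p = 0.287) or without B1503, had 0.95 ± 0.26, adjusted p = 0.016.

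At the other end, DENND2A, an exchange factor for Rab proteins, had 9.25, 18 and 47.6 CPM in control samples and 0.456, 2.02 and 5.62 CPM on Day 180. AEBP1, a protein known from connective tissue, had 10.5, 41.7 and 97.3 CPM against 1.53, 6.27 and 9.76 CPM. The groups did not overlap for either (-3.08 ± 0.42, adjusted p = 0.000378 and -2.87 ± 0.32, adjusted p = 0.000112). CCDC141 had the lowest log2 fold change (-3.55 ± 0.35, adjusted p = 6.34e-05), from 0.300, 5.23 and 19.5 CPM to 0, 0.326 and 2.54 CPM, with a Day 180 sample at 0. PPFIA2 (-3.46 ± 0.57), the deubiquitinase USP2 (-3.13 ± 0.42), the secreted ligand WNT7B (-3.11 ± 0.44), the visual arrestin SAG (-3.10 ± 0.44) and SH3RF3 (-2.84 ± 0.47) complete the group and had medians under 1 CPM on Day 180. Apart from HBB, described next, the other 9 of the 10 lowest genes were called also with the library label as a term and against the S0 control samples.

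Red cell genes were called in opposite directions against own control. The beta globin gene HBB fell from 31.99, 88.7 and 229.9 CPM in control samples to 8.52, 12.5 and 18.99 CPM on Day 180, without overlap (-2.84 ± 0.34, adjusted p = 0.000214), and alpha globin, HBA, from 7.56, 23.01 and 35.4 CPM to 0.401, 3.72 and 8.23 CPM (-2.56 ± 0.43, adjusted p = 0.00122). The anion exchanger of the red cell membrane SLC4A1 rose from 132.2, 616 and 914 CPM to 306, 1318 and 2074 CPM (1.31 ± 0.24, adjusted p = 0.00206), and AHSP, the chaperone of alpha globin, had 1.15 ± 0.26, adjusted p = 0.0062. In all, 13 of 29 erythroid and heme genes were higher and 2, the globins, were lower, with a median of 0.65. These calls differed with the treatment of the library label. With it as a term 3 genes were higher and HBB did not pass (-1.65, adjusted p = 0.0671), and against the S0 control samples 5 were higher (20 by DESeq2 against own control), HBB had -0.16 and HBA 0.71. Without B1503 8 were higher, and SLC4A1 was not called with the label (adjusted p = 0.106). Alpha globin is encoded by near-identical copies, so its count is uncertain. How library preparation affects the globin counts was not tested. Platelet genes were higher in 4 of 16, namely TREML1 (0.96 ± 0.24), the chemokine PPBP (0.80 ± 0.20), NRGN (0.81 ± 0.21) and GP1BB (0.75 ± 0.25), and in none of 16 without the block for animal. Against the S0 control samples 2 of 16 were higher, and NRGN and GP1BB were not called there or with the library label as a term (adjusted p = 0.383 and 0.378 with the label). Their values against the S0 control samples were -0.57 and -0.06. TREML1 was not called against the S0 control samples either (0.10, adjusted p = 0.867).

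Genes of the p53 pathway, which answers DNA damage, were called in both directions. Of 24 p53 targets 3 were higher and 4 lower, with a median of 0.09. Among all tested genes 8.81% were higher and 9.86% lower, so these small counts lie not far from those shares. CDKN1A, the inhibitor of the cell cycle, had 36.7, 52.2 and 71.3 CPM in control samples and 41.5, 126.8 and 230.3 CPM on Day 180 (1.19 ± 0.24, adjusted p = 0.00336), and TP53INP1 had 120.1, 174 and 224.6 against 272, 347 and 381 CPM, without overlap (1.00 ± 0.15, adjusted p = 0.000691). The apoptosis gene BBC3 was also higher (0.87 ± 0.15). The DNA repair genes XPC (-0.43 ± 0.13) and DDB2 (-0.39 ± 0.24) and MDM2, the negative regulator of p53 (0.01 ± 0.17), did not pass, while PHLDA3 (-0.89 ± 0.26), AEN (-0.77 ± 0.15), POLH (-0.61 ± 0.16) and SESN1 (-0.61 ± 0.15) were lower. The 4 lower calls became 2 with the library label as a term, with TMM scaling, with DESeq2 and without B2502, and 1 without B1503. PHLDA3 was lost with the label (-0.46, adjusted p = 0.249) and against the S0 control samples (-0.43, adjusted p = 0.322), as was BBC3 (0.47, under the fold of a call, and 0.23, adjusted p = 0.478).

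Feedback genes of cytokine signalling were higher in 7 of 19 and lower in 2. SOCS3, the inhibitor of interleukin-6 family signalling, had 15.6, 20.5 and 39.6 CPM in control samples and 34.5, 86.04 and 138.5 CPM on Day 180 (1.81 ± 0.22, adjusted p = 0.000228). SOCS2 had 6.18, 7.97 and 9.24 CPM against 9.36, 16.2 and 21.2 CPM and CISH 32.7, 42.8 and 44.8 CPM against 45.7, 79.1 and 95.1 CPM. Both were without overlap (0.94 ± 0.18, adjusted p = 0.00254 and 0.86 ± 0.15, adjusted p = 0.00164), and the repressor BCL6 had 0.98 ± 0.14, adjusted p = 0.000457. JAK3 (-0.81 ± 0.16) and the shared receptor chain IL6ST (-0.64 ± 0.15) were lower. Of 17 glucocorticoid response genes 4 were higher, namely IL1R2, CEBPD (1.02 ± 0.20), CD163 and ANXA1 (0.70 ± 0.17), and SESN1 was lower. FKBP5 (-0.12 ± 0.15), TSC22D3 (-0.28 ± 0.15) and PER1 (0.04 ± 0.20), the glucocorticoid targets found in most cell types, did not pass. The 2 lower feedback genes became 1 without B1003, B1503 or B1505 and with TMM scaling or DESeq2, CISH was not called against the S0 control samples (0.17, adjusted p = 0.595), and no glucocorticoid gene was lower without B2502.

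In the TGF-beta pathway, which drives fibrosis in injured lung, 3 of 19 genes were higher and 1 lower. The shares over all tested genes were 8.81% and 9.86%. TGFBI, a matrix protein made by monocytes, rose from 27.4, 38.8 and 69.4 CPM to 70.3, 136.2 and 191 CPM, without overlap (1.57 ± 0.27, adjusted p = 0.00157). LTBP1, a binding protein of latent TGF-beta, had 0.65 ± 0.14, while LTBP3 was lower (-1.26 ± 0.26, adjusted p = 0.00435). The ligand TGFB1 had 0.45 ± 0.14 and the receptor TGFBR2 0.07 ± 0.12, and neither passed. Of 28 hypoxia and glycolysis genes 6 were higher, led by LDHA (118.1, 148 and 201.8 CPM in control samples, 251, 318 and 468 on Day 180, without overlap, 1.12 ± 0.14, adjusted p = 0.000263), BNIP3L (0.96 ± 0.26), PFKFB3 (0.87 ± 0.16) and VEGFA (0.82 ± 0.20). Without the block for animal 1 of the 28 was called. LTBP1 and BNIP3L were not called with the library label as a term (adjusted p = 0.0913 and 0.0726) or without B1503, and 3 TGF-beta genes were lower with the label. PFKFB3 and VEGFA were not called against the S0 control samples (adjusted p = 0.0981 and 0.187).

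Interferon response genes were lower in 5 of 32 and higher in 1 (CMPK2, 0.74 ± 0.20), with a median of -0.35. HERC5, the ligase of ISG15, had 5.89, 11.3 and 29.2 CPM in control samples and 2.37, 3.87 and 7.49 CPM on Day 180 (-1.55 ± 0.25, adjusted p = 0.000914), and MX1 had -0.77 ± 0.23, adjusted p = 0.0253. With the library label as a term none of the 32 was called in either direction, with HERC5 at -1.21 (adjusted p = 0.244). Without B2502 3 of the 32 were lower, and CMPK2 was not called without B1503 or B2502. Ribosomal protein genes were lower in 9 of 48 and higher in 2, and the 9 became 2 with the library label as a term and 1 against the S0 control samples, and 15 without B1503. No ribosomal gene was higher with the label, against the S0 control samples or without B1004 or B1503. The median ribosomal change was 0.66 in B1503 and between -0.65 and -0.13 in the other 5 animals. Ribosomal protein genes have many processed copies, which makes their counts uncertain.

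Of 30 replication and mitosis genes none was called higher and 4 were lower, namely AURKA (-0.91 ± 0.26), CENPF (-0.84 ± 0.23), MCM3 (-0.83 ± 0.19) and MCM5 (-0.78 ± 0.18), and the proliferation marker MKI67 had -0.42 ± 0.22. The share lower over all tested genes was 9.86%. With the library label as a term 1 of the 30 was lower, as against the S0 control samples, and AURKA was lost also without B1003, B1502, B1503 or B2502. Of 37 oxidative phosphorylation genes NDUFA4 (0.78 ± 0.21) and ATP5PB (0.62 ± 0.13) were higher and NDUFA1 (-0.92 ± 0.23) was lower. NDUFA1 was at 0.01 with the label and 0.23 against the S0 control samples, NDUFA4 was not called against the latter (adjusted p = 0.236) or without B1503, and ATP5PB not with the label (0.46) or without B1004. The 3 genes of complement C1q, a product of tissue macrophages and some monocytes, did not pass, with C1QA at 0.72 ± 0.41 and C1QB at 0.77 ± 0.33. C1QB was called with DESeq2 (adjusted p = 0.047) and without B1003, and C1QA without B1004. Defining markers of lung epithelium were at or near 0. SFTPA1 and SFTPD had no read in the 12 samples and SFTPC had 1, so these libraries give no measure of them, and SFTPB had 3.08, 4.02 and 6.72 CPM in control samples and 1.74, 2.56 and 4.53 CPM on Day 180 (-0.74 ± 0.26, adjusted p = 0.0491). That call of SFTPB was lost without the block for animal, with TMM scaling, with DESeq2, with no filter on low counts, against the S0 control samples (adjusted p = 0.239) and without any 1 animal but B1505 (adjusted p = 0.0824 to 0.122). AGER had an adjusted p of 0.997. None of 6 endothelial genes was called, with VWF, which platelets also hold, at 0.28 ± 0.19.

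Setting Day 180 against other draws of the same animals kept the library label the same. These comparisons share the 6 Day 180 samples with the comparison above and with each other, so they are not independent of it. Against Day 30, 1123 genes were called (8.17%), 533 higher (3.88%) and 590 lower (4.29%) on Day 180. The split was 825 higher and 553 lower with DESeq2, and the count was 399 without B2502, 445 without B1503 and 263 without the block for animal. Against Day 150 the count was 0 (0%) by edgeR, with 1298 genes at an unadjusted p under 0.05 and 2 called by DESeq2 among the 3620 genes it gave an adjusted p. Day 150 held the shallowest of these samples, at 2840219 counted reads. Against Day 210, 1100 genes were called (8.00%), 680 higher (4.95%) and 420 lower (3.05%) on Day 180, with 685 higher and 703 lower by DESeq2. The share called against Day 210 was 0.96% without B2502, 1.21% without B1004, 1.88% without B1003, 3.43% without B1503 and 2.61% without the block. Among the shortest genes by exon length (4586 genes of at most 2439 bases) 7.76% were higher and 1.92% lower than on Day 210, and among the 4581 longest 2.79% and 4.41%.

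**Figure D3:**
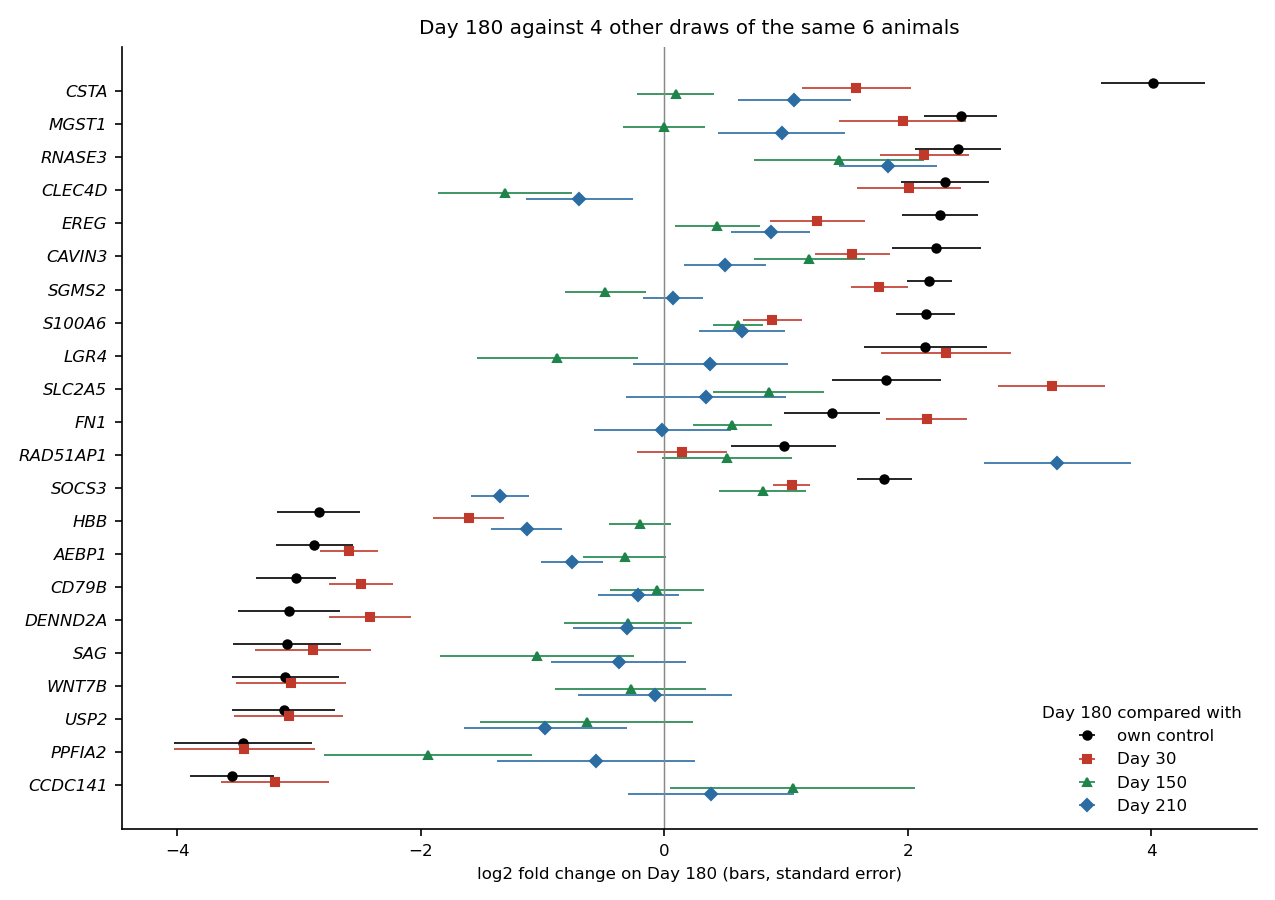
Log2 fold change (x axis) of 22 genes on Day 180 against 4 references in the same animals, namely own control, Day 30, Day 150 and Day 210, with bars of 1 standard error. CD79B, a B cell gene, lies left of 0 against control and Day 30 and near 0 against Day 150 and Day 210.

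CD79B was at 73.2, 126.2 and 348 CPM on Day 30, 1.61, 31.3 and 67.7 CPM on Day 150 and 9.71, 32.6 and 52.3 CPM on Day 210, against 7.45, 26.1 and 59.9 CPM on Day 180. The log2 fold change of Day 180 was -2.49 ± 0.26 against Day 30 (adjusted p = 0.000148), -0.06 ± 0.39 against Day 150 and -0.21 ± 0.33 against Day 210. CD22 had -2.34 ± 0.21, -0.14 ± 0.35 and -0.11 ± 0.31 in the same order, and TCL1A -2.99 ± 0.28, 0.02 ± 0.58 and 0.11 ± 0.49. The Day 30 values of CD79B lay above those of Day 180. The range of Day 150 covered the whole Day 180 range, and that of Day 210 covered it in part. Over the draws, the median log2 change of the 22 genes from control was -1.31 on Day 3 and -0.16 on Day 30. It was -1.33 by Day 120 and -1.89 by Day 150, stood at -2.08 on Day 180, -2.03 on Day 210, -2.30 on Day 240, the lowest of the draws, and -1.99 on Day 270, each over the same 6 animals.

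**Figure D4:**
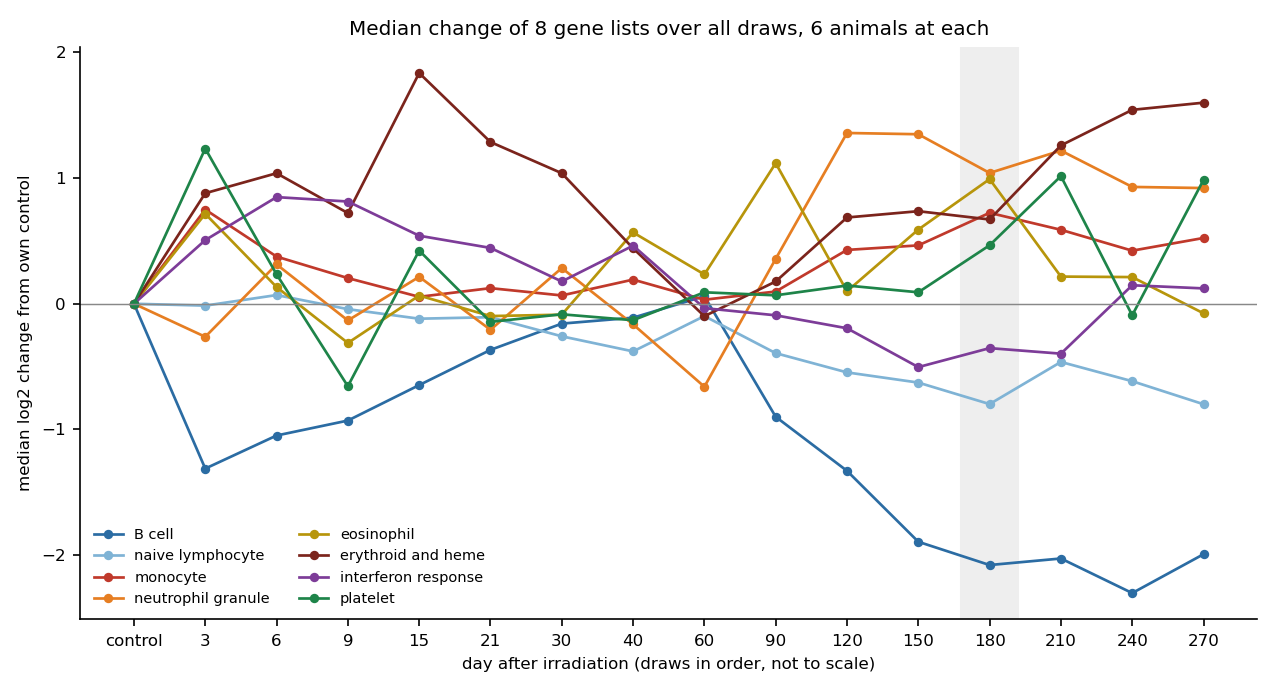
Median log2 change from own control (y axis) of 8 gene lists over the day of the draw (x axis), 6 animals at each draw, with Day 180 shaded. The B cell line lies at -1.31 on Day 3, returns to -0.16 on Day 30 and lies at -2.08 on Day 180, while the neutrophil granule line stands at 0.28 on Day 30 and 1.04 on Day 180.

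Genes of the myeloid lists were higher than on Day 30 too, with 5 of 16 monocyte, 5 of 14 neutrophil granule, 7 of 18 mature neutrophil, 4 of 9 lectin and 8 of 16 interleukin-1 and interleukin-18 family genes called higher. Of the monocyte genes 1 was called lower. Over all tested genes 3.88% were higher and 4.29% lower than on Day 30. CCR1 had 15.4, 42.5 and 67.8 CPM on Day 30 against 75.1, 130.6 and 220 CPM on Day 180 (1.71 ± 0.29, adjusted p = 0.00334). TLR5 (1.49 ± 0.15, adjusted p = 0.000118), IL1R2 (1.51 ± 0.18, adjusted p = 0.00032) and SGMS2 (1.77 ± 0.24, adjusted p = 0.000885) were also higher. The genes highest against Day 30 were the fructose transporter SLC2A5 (3.18 ± 0.44), the unconventional myosin MYO7A (2.44 ± 0.41), LGR4 (2.31 ± 0.53), ABHD12B (2.18 ± 0.42) and fibronectin, FN1 (2.16 ± 0.33). Those lowest were PPFIA2 (-3.45 ± 0.58), CCDC141 (-3.20 ± 0.44), USP2 (-3.08 ± 0.45), TCL1B (-3.08 ± 0.52), a relative of TCL1A, and WNT7B (-3.06 ± 0.45). In contrast to the comparison with control, 4 erythroid genes were lower than on Day 30 and none was higher.

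Against Day 210, SOCS3 was lower on Day 180, at 34.5, 86.04 and 138.5 CPM against 135.8, 198.3 and 276 CPM on Day 210 (-1.35 ± 0.24, adjusted p = 0.0124), as were PFKFB3 (-1.04 ± 0.19, adjusted p = 0.0126) and BCL6 (-0.70 ± 0.20, adjusted p = 0.0447). Of the lists, 10 of 29 erythroid, 6 of 16 platelet and 4 of 18 mature neutrophil genes were also lower on Day 180 than on Day 210. The ribosomal proteins were higher on Day 180 in 28 of 48 genes and the oxidative phosphorylation genes in 8 of 37. Over all tested genes 4.95% were higher and 3.05% lower than on Day 210. These list counts were not recomputed with an animal left out. The genes highest on Day 180 against Day 210 were RAD51AP1, a DNA repair factor (3.23 ± 0.60), CD36 (2.30 ± 0.38) and RNASE3 (1.84 ± 0.40), and the lowest were PROSER2 (-1.62 ± 0.43), the growth factor IGF2 (-1.47 ± 0.30) and DOC2B (-1.46 ± 0.31).

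Whether the Day 180 change differed between the sexes was tested as an interaction of day and sex over 4 females and 2 males. At the same limit on the adjusted p, with none on fold, 505 genes (3.67%) were called, 302 with a more positive change in males and 203 in females. The smallest adjusted p of the named genes was 0.0244. The count rested on single animals, with 0 genes without B1004, 2 without B2502, 4 without B1505, 762 without B1502 and 6.84% of genes without B1003. Both males were in the 9.8 Gy group. The 16 genes given here were chosen after their values were seen, as the 8 largest in each direction among called genes with an assigned gene name, a mean of at least 5 CPM and no overlap between the changes of males and females.

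RETN, the gene of resistin, which in primates is made by myeloid cells, changed by -0.39 and 0.71 on the log2 scale in the males and by 3.11, 3.70, 2.55 and 3.60 in the females. The male changes lay below each female change (-3.28 ± 0.53, adjusted p = 0.0321, males minus females). COL9A2, a collagen chain, changed by 0.40 and -0.64 in the males and 3.20, 1.75, 2.71 and 2.91 in the females (-2.78 ± 0.39, adjusted p = 0.0244), and FN1 by -0.42 and 0.07 and 1.59, 1.18, 2.65 and 3.21 (-2.33 ± 0.45, adjusted p = 0.0368). PDK4, a kinase that limits glucose oxidation, changed by 1.92 and 3.48 in the males and -1.43, 0.17, -0.65 and -2.03 in the females, again without overlap (3.75 ± 0.54, adjusted p = 0.0244). JCHAIN changed by 1.08 and 0.77 and -1.26, -0.42, -1.12 and -1.35 (1.97 ± 0.28, adjusted p = 0.0244) and the spindle gene ASPM by 1.29 and 1.53 and -0.58, -0.66, -0.72 and -0.31. The others were SPC25, REEP1, CLECL1, RSPH3 and SPIN4 toward males and ZNF385A, STEAP3, LAMB2, NXN and EPHB2 toward females. The sexes were already apart at control for JCHAIN (59.04 and 42.54 CPM in males, 122.3 to 165.6 in females), ASPM (7.89 and 6.98, 15.3 to 16.97) and PDK4 (8.86 and 6.89, 10.75 to 54.32). They were apart at control also for SPC25 (3.005 and 2.411, 6.129 to 13.88) and SPIN4 (4.432 and 4.651, 5.63 to 7.641). The same held for REEP1 (4.958 and 5.253, 2.113 to 4.203) and LAMB2 (11.79 and 11.11, 4.253 to 9.152), where the males were higher. Control levels of RETN, COL9A2 and FN1 overlapped. On Day 180 JCHAIN levels overlapped, at 124.9 and 72.62 CPM in males and 50.95 to 95 in females. On Day 210 RETN changed from control by 2.47 to 2.90 in the males and by -1.26 to 3.56 in the females, and COL9A2 by 3.76 to 4.01 and by 1.25 to 4.07. JCHAIN changed by -0.89 to -0.58 in the males and by -2.43 to -1.65 in the females on that day. Of the 16 genes 3, RSPH3, SPIN4 and JCHAIN, had male and female changes that lay apart on Day 210 in the Day 180 direction, with 7 on Day 150. On Days 30, 60, 90, 120, 240 and 270 this number lay between 1 (Day 120) and 11 (Day 30), and all these draws share the control samples.

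**Figure D5:**
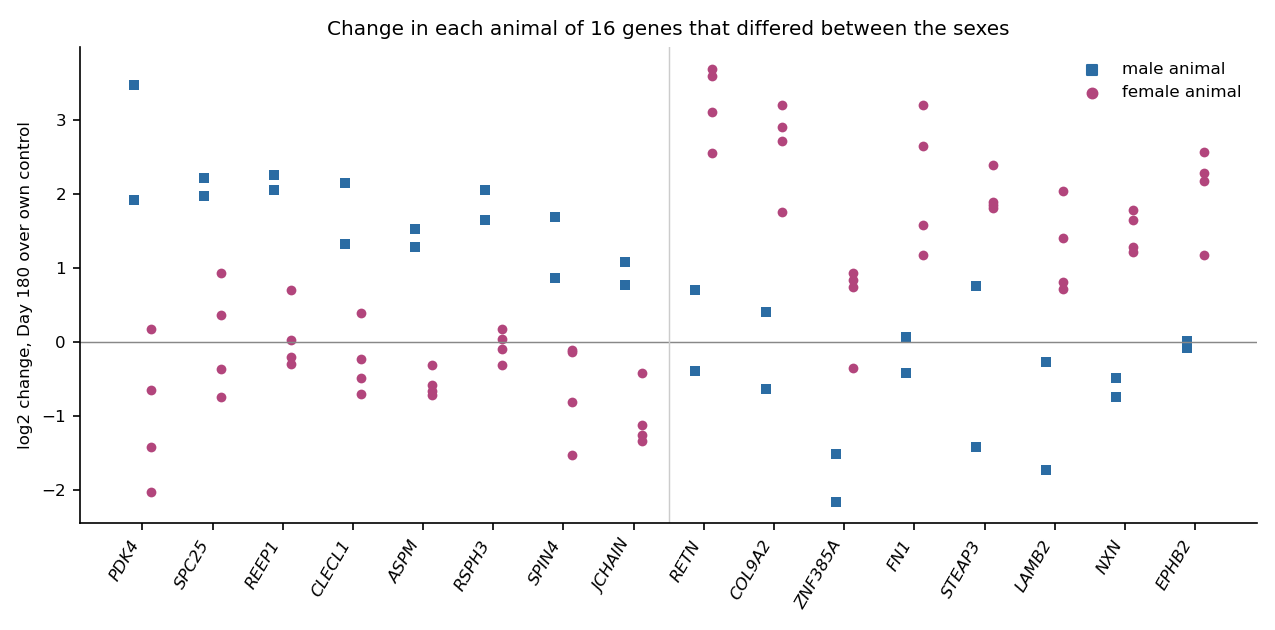
Log2 change on Day 180 from own control (y axis) of 16 genes (x axis) in each of 2 males and 4 females, 1 point per animal. In each gene the male and female points do not overlap, and this separation was part of how the genes were chosen.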

How the data were processed

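Whole blood RNA sequencing of 304 samples was deposited by the authors as a table of raw counts for 21070 genes. Per the labels and the study's methods, the authors trimmed reads with cutadapt 2.10 and aligned them to Mmul_10 with STAR 2.7.6a, with counting on RefSeq genes by Subread 2.0.1. Whether the counting used strand is not given in the sources used here, so overlapping and antisense genes cannot be separated. The authors' other deposited table, of log2 values was not used.

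The 13751 genes that reached 3 counts in 80% of the 304 samples were tested. Counts were scaled by the upper quartile and compared with the quasi-likelihood test of edgeR 4.0.16 (R 4.3.3) in a model that blocks on animal, and p-values were adjusted by the method of Benjamini and Hochberg. CPM used the same scaling over the 304 samples, log2 CPM a prior count of 2, and the standard error is the size of the log2 fold change over the root of F. The animal number pairs the samples: the deviations of each animal's control and Day 180 samples from their group means correlated by 0.121 to 0.495, and 6 of 6 animals correlated best with themselves. DESeq2 1.42.0, TMM scaling, other filters, no replicate block, leaving out each animal and 2 ways of treating the library label were the alternatives, and the data.table package (1.17.8), NumPy 2.4.6, pandas 2.3.3 and Matplotlib 3.10.9 made tables and figures. The workflow was tested on simulated data: in the Day 180 versus control design it recovered 81 of 100 genes changed by a fold of 2 and 97 of 100 changed by a fold of 3, with 10 other genes called among 13751, and for the interaction 4 of 100 and 46 of 100.

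Genes were named by rule: the 10 highest and 10 lowest fold changes among called genes moving the same way in 6 of 6 animals with a mean of at least 1 CPM, up to 4 called members of each list by size (or the 2 most abundant where fewer than 2 were called), the 5 highest and 5 lowest against Day 30, the 3 highest and 3 lowest against Day 210, and genes named in earlier results. Further list members are given for the role they have. The members, the 30 lists and the named genes were chosen with earlier results of these data known. Promoter sequence is from RefSeq, Mmul_10. Some genes and 1 promoter sequence are not reported here.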

Additional observations from a re-analysis of the deposited data

Results flagged for a closer look

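In 7 of the named genes, 5.3% of those looked at, 1 animal's log2 change from control to Day 180 stood apart from those of the other 5 by Dixon's test at the 95% level, and chance does this in about 1 in 20 groups. CD79B changed by -5.43 in B1004, with the nearest other animal at -3.11, and MAMU-DOB by -3.81 in the same animal, with the nearest at -2.20. In B1503, LEF1 changed by -1.64, RPL10A by 0.36 and NDUFA4 by 1.93, next to -1.21, -0.82 and 0.81 in the nearest other animals. CLEC4A changed by -0.19 in B1502 (nearest 1.08) and VEGFA by 1.88 in B2502 (nearest 0.82).

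The Day 180 change differed between males and females in 505 genes by the interaction test of edgeR at an adjusted p of at most 0.05, and without B1004, which leaves 1 male, in 0 genes.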

How the results depend on the processing

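Among named genes called against control, 26 were not called with the library label as a term, 44 against the S0 control samples and 28 without the replicate block. The sign turned against the S0 control samples for NKG7 (-0.30), NRGN (-0.57), GP1BB (-0.06), HBA (0.71), CENPF (0.10) and NDUFA1 (0.23), and with the library label as a term for NDUFA1 (0.01). The cause was not tested. The share of tested genes called against control was 14.0 to 18.4% when an animal was left out. Against Day 30 it was 1.91% with no replicate block and 2.90 to 11.3% when an animal was left out, and against Day 210 it was 2.61% and 0.96 to 11.9%. Against Day 150, DESeq2 called 2 genes (0.0552%). The interaction with sex was called in 8.59% of genes by DESeq2, in 6.81% with no filter on low counts and in 0 to 6.84% when an animal was left out. With 6 animals, fold changes near 2 were recovered less often than larger ones in simulated counts, and the interaction seldom at a fold of 2.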

Other observations

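The lists that were lower or higher on Day 180 did not share 1 course over the draws of the same 6 animals. The naive lymphocyte list had a median log2 change from control of -0.26 on Day 30 and -0.80 on Day 180, then -0.46 (Day 210) and -0.80 (Day 270). The eosinophil list went up and down, with its highest median, 1.12, on Day 90. It had 0.72 (Day 3), -0.09 (Day 30), 0.10 (Day 120), 0.59 (Day 150), 0.99 (Day 180) and 0.22 (Day 210). The erythroid and heme list had its highest median, 1.84, on Day 15 and its lowest after control, -0.10, on Day 60, with 0.67 (Day 180) and 1.6 (Day 270). The interferon response list was highest on Day 6 at 0.85 and lowest on Day 150 at -0.50, with -0.35 (Day 180), -0.40 (Day 210) and 0.12 (Day 270). These are values over animals that were bled at each draw, and differences between draws other than those tested above were not tested.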
